A study of Rattus norvegicus with 6 samples.

Results

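The genes described here encode ion channels for sodium, calcium and chloride and the transient receptor potential (TRP) channels. The anoctamin, TMC, cyclic nucleotide gated and hyperpolarization-activated (HCN) families are among them. All are described as transcribed in rat lateral ventricular choroid plexus. They were found by a pattern on the gene names that the authors deposited, and 71 of the 29479 gene identifiers in the count table matched it. A name was given in those files to 10093 identifiers only, namely genes the authors had called different between the same embryonic and adult pools. Every age difference of the 71 genes is therefore a description of genes chosen on that contrast. No p-value is given for them, and where a gene is said to be called or not called by a fit over the whole table, this only describes how its difference stands to the spread between pools and is no independent evidence of it.

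RNA was taken from Sprague-Dawley rats at embryonic day 15 (E15) and from adults aged 6 weeks, all of them untreated. Left and right plexuses of 10 animals were combined in a pool, and 3 pools were sequenced at each age. The plexus was taken whole, so that each pool held stroma, vessels and blood beside the epithelium, and fewer cells of a type and less RNA per cell cannot be told apart. Counts below are raw reads per gene, and normalized counts are raw counts scaled to a common library size of 18566369 with the TMM factors of edgeR.

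The choroid plexus epithelium secretes cerebrospinal fluid by moving sodium, chloride and bicarbonate from blood to ventricle, with water following. Its anion and cation channels set the membrane potential and let ions recycle or leave across the apical membrane, while calcium released from the endoplasmic reticulum or entering through TRP and store-operated channels couples hormone receptors and cell volume to secretion. Voltage-gated sodium and calcium channels are best known from neurons and muscle, where they carry action potentials and start contraction or transmitter release.

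All 71 genes had enough counts for the fit across the whole table. Of these, 43 were called higher at E15 and 21 higher in the adult in the fit (edgeR's quasi-likelihood test), and 7 were not called, among them Trpm8, Ano3, Ano5, Scn9a and Orai1. Over all 16643 genes tested 34.7% were called higher at E15 and 29.3% in the adult, 64.0% in either direction, and since the names rest on the same contrast nothing is read from the larger share among the channels. The pools of the ages did not overlap for 69 of the 71 genes, against 70.1% of all genes tested, and Scn9a was among the exceptions. The median of the log2 fold change (E15 minus adult) was 2.07 for the channel genes and 0.14 for the whole table.

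The named genes of the families did not share a direction. For comparison, 34.7% of all genes tested were called higher at E15 and 29.3% were called higher in adult pools. Family genes that the authors had not called carry no name and are missing below. The counts therefore describe named genes and give no share of a whole family. Of the 24 voltage-gated sodium and calcium channel genes 21 were called higher at E15 and 2 higher in the adult, with a median log2 fold change of 2.86. Of the 20 chloride and anion channel genes 6 were called higher at E15 and 11 in the adult, with a median of -0.93. The 5 genes of calcium stores and store-operated entry had a median of -1.85, and 3 of them were called higher in the adult. The 10 TRP genes were divided, with 5 called at E15 and 4 in the adult. The cyclic nucleotide gated and the hyperpolarization-activated (HCN) genes were 8 together, with 6 called at E15 and 1 in the adult. All 3 named TMC genes were called at E15.

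**Figure D1:**
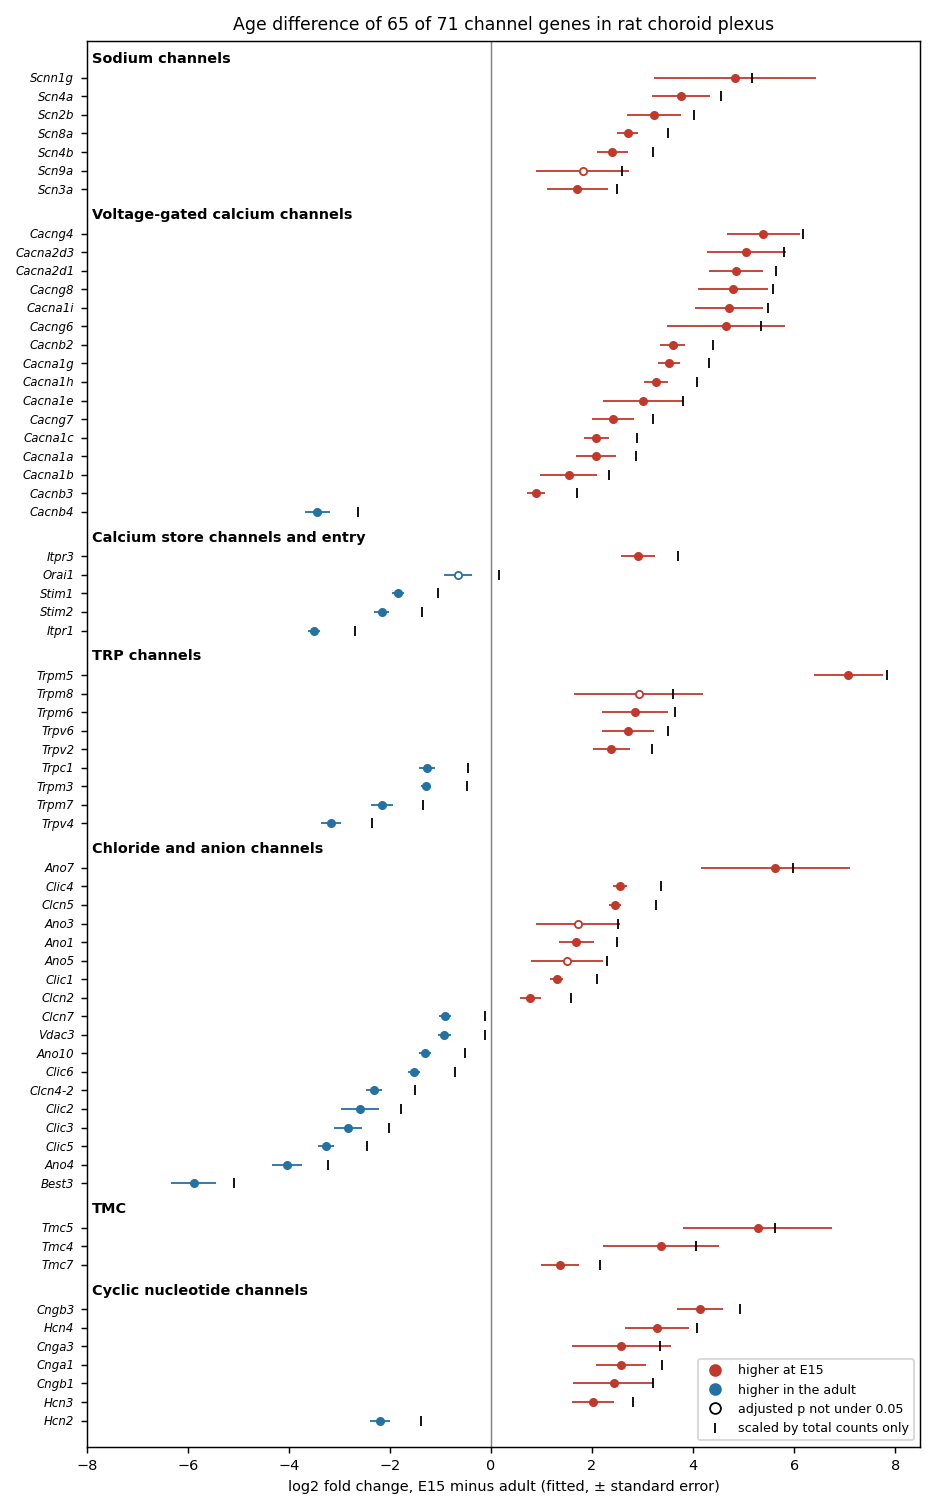
Fitted log2 fold change (E15 minus adult, horizontal axis) with its standard error for 65 of the 71 channel genes, grouped by family. Filled points passed an adjusted p of 0.05, open points did not, and black ticks give the value when libraries are scaled by total counts only. Points of the voltage-gated families lie mostly to the right of 0 and those of the store and CLIC genes mostly to the left, and the ticks lie to the right of the points throughout, while for Scnn1g, Ano7 and Tmc5, with 0 adult counts, the position depends on the prior count of the fit and is no bound.

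The scaling of the libraries bears on every value. Raw totals were between 17875089 and 19204440 counts, but in the adult pools transthyretin (Ttr), the thyroid hormone carrier secreted by the epithelium, alone took 2649939 to 3238055 counts against 476150 to 612984 in the embryonic ones. TMM factors were 1.32 to 1.33 at E15 and 0.735 to 0.773 in the adult. With total counts as the only scaling that median over the whole table moved from 0.14 to 0.95, and of the 71 channel genes Orai1 alone changed its direction.

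The labelled tissue was checked against markers. The authors' names covered 10 of 14 chosen epithelial markers, among them Ttr, Kcnj13, Folr1, Aqp1 and Kl, and all were detected in every pool and higher in the adult. Further lists were read for cells that a whole plexus or its dissection could hold. Names covered 9 of 12 markers of endothelium, 5 of 10 of smooth muscle and pericytes, 7 of 10 of neural progenitors and 7 of 10 of red cells, and all of these named markers were called higher at E15, against 34.7% of all genes tested. Since only genes that the authors had called carry names, unchanged markers drop out of these counts. The summed normalized count of the endothelial markers was 8930 to 13089 at E15 against 1003 to 1414 in adult pools, and for smooth muscle and pericytes the sums were 5028 to 6350 and 918 to 1256. Of 14 named markers of developing neurons, from a list of 18, 10 were called higher at E15 and 3 in the adult, and Nhlh1 and Neurod6 had 0 counts in all 3 adult pools. The neuron markers summed to 4227 to 7491 normalized counts at E15 and to 12691 to 14251 in adult pools, where most counts were of Reln (9026 to 10388 raw counts). Of the remaining lists, 6 of 8 mesenchyme and 6 of 6 proliferation markers were called at E15, 2 mesenchyme markers in the adult, and macrophages (2 at E15 and 2 in the adult of 5), oligodendrocytes (3 and 5 of 9) and ciliated ependyma (1 and 1 of 2) were divided. Marker levels thus moved with age beside the channels, and the part of these cells in the channel values was not tested.

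Among sodium channels, the 5 pore subunits that carried a name all had their higher mean at E15. Scn8a, which carries much of the sodium current of mature neurons, had normalized counts of 237, 292 and 261 at E15, and its adult pools had 39.6, 40.0 and 41.0. The ages were well apart and the adult pools nearly equal, and the fitted fold was 6.53 (log2 2.71, SE 0.21). Scn4a, the pore of the sodium channel of skeletal muscle, was counted 38, 54 and 78 times at E15 and 4, 2 and 1 times in the adult. Its fold was 13.5, and without adult pool 1, which held 57.1% of the adult counts, the ratio was 22.5 with an exact 95% interval from 7.52 to 110.

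Scn3a and Scn9a were unevenly spread over the adult pools. Scn3a, found mostly in immature neurons, had raw counts of 31, 25 and 56 at E15 and of 3, 13 and 4 in the adult, a fold of 3.26 that became 5.79 without adult pool 2. It was no longer called without E15 pool 3 (2.46-fold), adult pool 1 (2.55-fold) or adult pool 3 (2.69-fold). Scn9a, a channel of sensory and sympathetic neurons, had raw counts of 156, 132 and 95 at E15 and of 0, 61 and 4 in the adult. Adult pool 2 thus held 93.8% of its adult counts and overlapped the E15 pools in normalized count. The fold of Scn9a was 3.52 and not called with all pools, and 34.1 and called without adult pool 2.

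The beta subunits, which steer sodium channels to the membrane and change their gating, included Scn4b and Scn2b, both higher at E15. Scn4b had normalized counts of 119, 173 and 150 at E15 against 19.1, 28.8 and 35.7, a fold of 5.27. Scn2b had raw counts of 134, 118 and 116 at E15 and of 3, 17 and 3 in the adult, and its fold of 9.31 was 22.1 without adult pool 2. Scnn1g, the gamma subunit of the epithelial sodium channel through which tight epithelia absorb sodium, was counted 4, 6 and 3 times at E15 and never in the adult. With the adult held to a floor of 3 counts over its 3 pools it was at least 2.51-fold higher at E15, and the call was lost when any adult pool was left out, with bounds of 1.63 to 1.70.

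The 7 pore subunits of voltage-gated calcium channels that carried a name were all called higher at E15, against 34.7% of all genes tested. Pore subunit genes that the authors had not called would carry no name and be missing here. T-type channels, which open at low voltage in neurons and developing muscle, are encoded by Cacna1g, Cacna1h and Cacna1i. Cacna1g had normalized counts of 880, 1526 and 1184 at E15 and of 109, 103 and 102 in the adult, a fold of 11.4 (log2 3.52, SE 0.22). Cacna1h had 1268, 2181 and 2124 at E15 against 160, 204 and 216, a fold of 9.61 (log2 3.26, SE 0.23). In both genes E15 pool 1 was the lowest of its age and still far above every adult pool. Cacna1i was counted 36, 57 and 55 times at E15 and 1, 2 and 0 times in the adult, a ratio of 29.0 with an interval from 9.61 to 140, or 54.8 (9.89 to 2225) without adult pool 2.

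Channels that open at higher voltage drive contraction and transmitter release. Cacna1c, the pore of the L-type channel of heart and smooth muscle, had normalized counts of 232, 213 and 183 at E15 and of 36.8, 58.8 and 51.6 in the adult, a fold of 4.25. Cacna1a, the P/Q-type pore of synapses, had 143, 210 and 207 against 45.0, 68.8 and 18.5, a fold of 4.21. The N-type pore Cacna1b had raw counts of 63, 39 and 51 at E15 and of 4, 21 and 6 in the adult. Its fold of 2.90 became 5.61 without adult pool 2, and it was not called without E15 pool 1 (2.50), E15 pool 3 (2.92), adult pool 1 (2.22) or adult pool 3 (2.38). Cacna1e, the R-type pore, was counted 45, 69 and 68 times at E15 and 0, 12 and 1 times in the adult. Without adult pool 2, which held 92.3% of those adult counts, its fold of 8.07 became a ratio of 69.6 (12.2 to 2733).

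Auxiliary subunits of calcium channels set their surface number and kinetics. The alpha2delta subunit gene Cacna2d1 had raw counts of 389, 194 and 211 at E15 and of 2, 11 and 3 in the adult, a fold of 28.8 that became 57.4 without adult pool 2. Cacna2d3 was counted 41, 49 and 40 times against 0, 0 and 2, a ratio of 37.4 (10.2 to 315), and without adult pool 3 it was at least 16.8-fold higher at E15. Both were absent or nearly absent from at least 1 adult pool.

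The beta subunits are intracellular partners of the pore, and 2 of the 3 that carried a name were higher at E15. Cacnb2 had raw counts of 1418, 1072 and 924 at E15 and of 55, 70 and 40 in the adult, a fold of 12.1 (log2 3.59, SE 0.24). Cacnb3 differed less, with normalized counts of 346, 385 and 472 against 239, 227 and 181, a fold of 1.86. Cacnb4 was the calcium channel gene that ran the other way, with normalized counts of 141, 77.2 and 74.1 at E15 against 914, 1084 and 1175, a fold of 10.9 in favour of the adult (log2 -3.44, SE 0.25). The adult pools thus held mRNA of a beta subunit while the 7 named pore subunits were all lower there than at E15.

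Of the gamma subunits, Cacng4, Cacng7 and Cacng8 also serve as partners of AMPA type glutamate receptors. Cacng4 was counted 314, 253 and 239 times at E15 and 0, 11 and 0 times in the adult. Its fitted fold was 42.0, and without adult pool 2 it was at least 102-fold higher at E15, and the fitted log2 fold change of 5.39 was 4.81 without adult pool 3. Cacng8 had raw counts of 78, 163 and 153 against 1, 7 and 0, with a fold of 27.7, of 18.4 without adult pool 3 and a ratio of 146 (26.6 to 5898) without adult pool 2. Cacng7 had normalized counts of 90.7, 148 and 183 against 30.0, 12.5 and 37.1, a fold of 5.30 with adult pool 2 the lowest of the 3. Cacng6, a subunit of muscle channels, was counted 5, 22 and 28 times at E15 and only once in the adult, a ratio of 31.3 (5.50 to 1284), and at least 7.04 without adult pool 3.

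**Figure D2:**
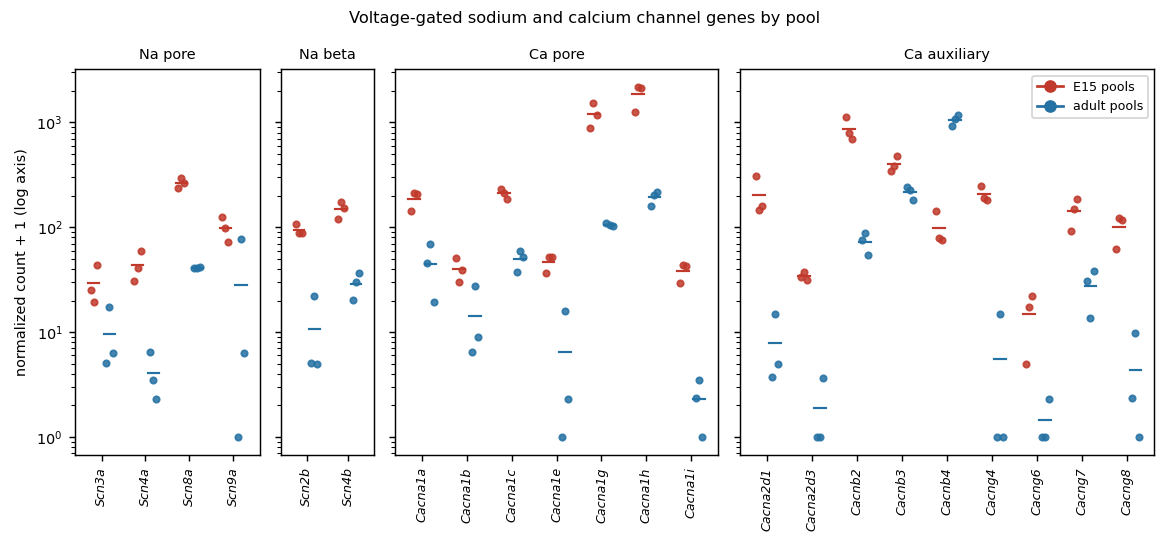
Normalized count plus 1 (vertical log axis) of 22 of the 24 voltage-gated sodium and calcium channel genes in each of the 3 E15 pools (red) and 3 adult pools (blue), with pools in the order 1, 2, 3 and the mean as a line. Of these genes only Cacnb4 has its adult pools above the E15 pools, and in Scn9a, Cacng4 and Cacna1e the adult mean rests mostly on a single point, adult pool 2.

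The uneven adult counts were compared with markers over pools of the same age, a reading that does not use the age contrast. For each gene the log2 ratio of a pool to the mean of the other pools of its age was taken with a pseudocount of 0.5. In adult pool 2 the median over the 24 voltage-gated genes was 0.43, with 18 above the mean of the other pools, against -0.49 in adult pool 1 and -0.75 in adult pool 3. The 14 markers of developing neurons had medians of 1.66, -1.23 and -0.87 in adult pools 2, 1 and 3. In adult pool 2, 11 of these 14 markers lay above the mean of the other adult pools. Tubb3, Stmn2, Gap43 and Snap25 had 190, 131, 191 and 246 counts there. In adult pool 1 they had 70, 19, 3 and 73 counts, and in adult pool 3 66, 17, 39 and 50. Reln was nearly level (0.08). Neurod1 had 8 counts in adult pool 1 and 0 in adult pools 2 and 3, and Nhlh1 and Neurod6 had 0 in every adult pool. Markers of endothelium (0.45), mesenchyme (0.51), smooth muscle and pericytes (0.39) and red cells (0.52) were also above the other pools in adult pool 2, whereas oligodendrocyte markers were highest in adult pool 1 (2.12). Over the 47 remaining channel genes the median in adult pool 2 was -0.01, and over all genes tested it was 0.

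At E15 the same comparison looked different. The neuron markers were high in E15 pool 1 (1.14) and low in E15 pool 2 (-1.59), with Dcx, a microtubule protein of migrating neurons, at 1275, 363 and 589 counts. The voltage-gated genes were at -0.27 in E15 pool 1 and 0.02 in E15 pool 2, and their summed normalized counts were 5685, 6914 and 6482 in pools 1, 2 and 3, while those of the neuron markers were 7491, 4227 and 6333. The channel sum was lowest in the pool where the neuron sum was highest. In large part it rests on Cacna1g (880, 1526 and 1184) and Cacna1h (1268, 2181 and 2124), both lowest in E15 pool 1. The order of the channel sums therefore need not hold for the other voltage-gated genes. Of the 24 genes 10 had their highest E15 value in pool 1, among them Cacna2d1, Scn9a and Cacna1b. Only 3 pools stand behind each of these statements, and the part of any cell type in the channel counts was not tested.

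**Figure D3:**
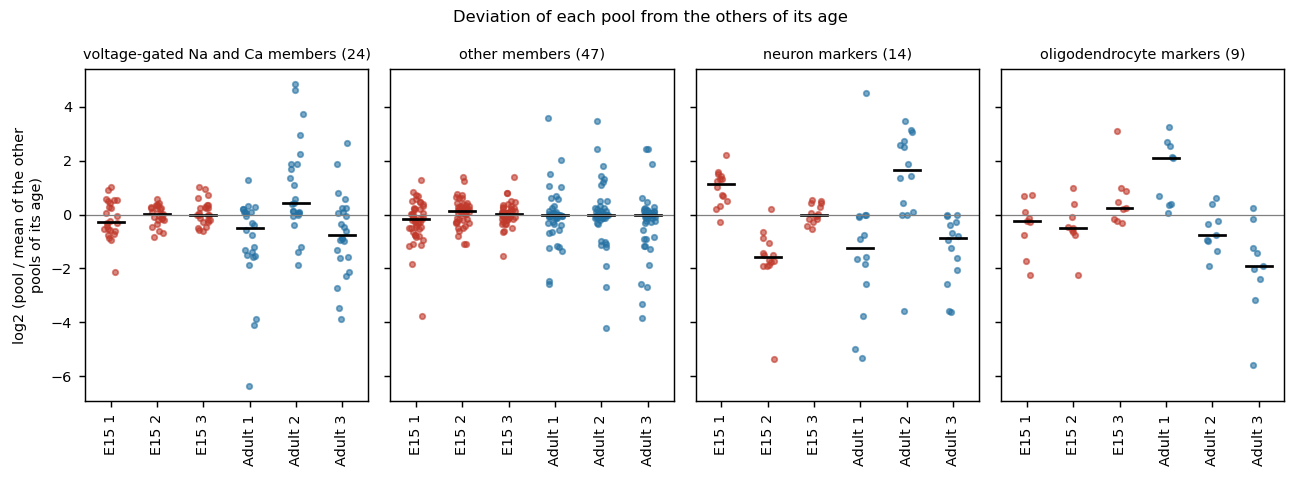
Log2 ratio of each pool to the mean of the other pools of its age (vertical axis) for 24 voltage-gated channel genes, 47 other channel genes, 14 neuron markers and 9 oligodendrocyte markers, with 1 point per gene and the median as a black line. Adult pool 2 lies above the other adult pools for the voltage-gated genes (0.43) and the neuron markers (1.66), whereas in E15 pool 1 the neuron markers are raised (1.14) and the voltage-gated genes are not (-0.27).

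Release of calcium from the endoplasmic reticulum runs through IP3 receptors, and the 2 named receptor genes lay on opposite sides. Itpr1 had normalized counts of 2383, 2441 and 2171 at E15 and of 25558, 25129 and 28908 in the adult, a fold of 11.4 in favour of the adult (log2 -3.51, SE 0.11). Itpr3 had 219, 348 and 335 at E15 against 20.5, 50.1 and 49.0, a fold of 7.50 in favour of E15 (log2 2.91, SE 0.34). For both genes the pools of an age differed far less than the ages did, in opposite directions.

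Stim1 and Stim2 sense the calcium of the store and open Orai channels in the plasma membrane when it falls. Stim1 had normalized counts of 1469, 1817 and 1817 at E15 and of 6109, 6097 and 6168 in the adult, a log2 fold change of -1.85 (SE 0.11). Stim2 had 3349, 2551 and 2339 against 11742, 12096 and 13125, a fold of 4.49 (log2 -2.17, SE 0.14). Both sensors were higher in every adult pool than in any E15 pool. Orai1, the channel itself, had 191, 415 and 427 at E15 against 583, 569 and 479. Its adult pools were all higher, but the fold of 1.58 was not called, and E15 pool 1 was the lowest. It was called without E15 pool 1 (1.30-fold), E15 pool 2 (1.76-fold) or E15 pool 3 (1.80-fold), and with total counts as scaling its log2 fold change was 0.15, on the E15 side.

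Pumps and partners of calcium handling came from a list of 70 genes, of which 37 carried a name in the authors' files. Of these, 21 were called higher at E15 and 15 in the adult, and Mcoln3 was not called. The plasma membrane calcium pump genes Atp2b3 (17.7-fold) and Atp2b2 (5.98-fold) and the store pump gene Atp2a2 (2.20-fold) were higher in the adult. The sodium calcium exchanger genes Slc8a1 (8.21-fold) and Slc8a3 (15.3-fold), Jph2 (36.8-fold), which ties surface and store membranes in muscle, Trdn (15.1-fold), a store membrane protein of muscle, and the calcium channel inhibitor Rrad (50.9-fold) were higher at E15. These partners too were named only through the authors' calls.

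TRP channels admit cations in response to osmotic, thermal, chemical or receptor signals. Trpv4, opened by cell swelling and warmth and known from the apical membrane of the plexus, had normalized counts of 297, 519 and 506 at E15 and of 4081, 4057 and 3745 in the adult, a fold of 8.98 (log2 -3.17, SE 0.20). Trpm7, a magnesium and calcium channel with a kinase domain, had 2612, 1354 and 1561 against 8058, 8152 and 8394, a fold of 4.45. Trpm3, a heat and steroid gated channel whose gene also holds the microRNA miR-204, had 5735, 5813 and 5383 against 13454, 13120 and 14717, a fold of 2.44 (log2 -1.29, SE 0.10). Trpc1, a receptor-linked channel, had 738, 514 and 540 against 1438, 1520 and 1358, a fold of 2.41. In each of the 4 genes the adult pools were close together and above every E15 pool.

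The remaining TRP genes had their higher mean at E15. Trpm5, a calcium-activated channel of taste and tuft cells, was counted 196, 459 and 343 times at E15 and 4, 0 and 0 times in the adult. Its fitted fold was 134 (log2 7.07, SE 0.68), and without adult pool 1 it was at least 130-fold higher at E15, but 87.4-fold without adult pool 2. Trpm6, the close relative of Trpm7 that carries magnesium in kidney and gut, had raw counts of 44, 95 and 63 against 1, 3 and 12, with a fold of 7.18, or of 18.4 without adult pool 3. The relatives Trpm6 and Trpm7 thus lay on opposite sides.

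Trpv6, the calcium-selective channel of absorbing epithelia, was counted 43, 56 and 49 times at E15 against 3, 8 and 2 times, a fold of 6.53 that became 10.6 without adult pool 2. Trpv2 had normalized counts of 53.6, 79.4 and 73.3 against 10.9, 11.3 and 17.2, a fold of 5.21. Trpm8, the cold and menthol receptor, was counted 9, 5 and 2 times at E15 and 0, 1 and 0 times in the adult. It was not called, and its ratio of 9.85 had an interval from 1.44 to 389.

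Promoter sequences of RefSeq (build GRCr8, 250 bases before to 50 after each gene's start) could be matched by symbol to 48 of the 71 genes. The build is not that of the counts. Shown are windows of related genes that lay on opposite sides, Itpr1 and Trpv4 (higher in the adult) and Itpr3 and Trpm5 (higher at E15), 5′ to 3′ on the strand of the gene, with the GC box GGGCGG, read on both strands, in capitals.
Itpr1 (chr4:142743190-142743489, plus strand): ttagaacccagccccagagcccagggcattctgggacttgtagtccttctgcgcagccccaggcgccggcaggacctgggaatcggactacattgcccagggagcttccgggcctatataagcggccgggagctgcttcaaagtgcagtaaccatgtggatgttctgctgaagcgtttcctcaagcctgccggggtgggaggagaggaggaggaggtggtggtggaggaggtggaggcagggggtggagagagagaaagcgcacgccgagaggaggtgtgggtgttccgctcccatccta
Itpr3 (chr20:5138562-5138861, plus strand): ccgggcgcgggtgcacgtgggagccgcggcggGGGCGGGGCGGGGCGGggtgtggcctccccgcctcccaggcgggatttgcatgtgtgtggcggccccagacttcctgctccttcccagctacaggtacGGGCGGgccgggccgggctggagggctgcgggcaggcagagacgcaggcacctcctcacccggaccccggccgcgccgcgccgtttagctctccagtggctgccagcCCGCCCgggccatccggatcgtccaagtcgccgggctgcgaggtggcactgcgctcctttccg
Trpv4 (chr12:47598938-47599237, plus strand): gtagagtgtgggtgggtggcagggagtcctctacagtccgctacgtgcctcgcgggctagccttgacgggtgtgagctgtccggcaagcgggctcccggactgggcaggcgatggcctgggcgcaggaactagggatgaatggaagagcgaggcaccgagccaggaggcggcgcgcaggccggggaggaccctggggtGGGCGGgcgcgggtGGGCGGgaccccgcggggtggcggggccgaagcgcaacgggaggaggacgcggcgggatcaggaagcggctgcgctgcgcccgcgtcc
Trpm5 (chr1:207707039-207707338, minus strand): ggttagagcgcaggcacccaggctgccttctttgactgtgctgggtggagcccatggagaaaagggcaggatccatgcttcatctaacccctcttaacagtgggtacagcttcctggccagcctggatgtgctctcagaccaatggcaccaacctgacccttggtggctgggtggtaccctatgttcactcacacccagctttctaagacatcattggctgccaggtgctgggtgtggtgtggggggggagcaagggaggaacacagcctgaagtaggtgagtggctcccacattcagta

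The 4 windows shown differed in base composition without following the age. G and C made up 62% of the Itpr1 window and 76% of the Itpr3 window, with 13 and 35 CpG, and 73.7% of the Trpv4 window and 57% of the Trpm5 window, with 34 and 1 CpG. The GC box stood 4 times without overlap in the Itpr3 window and 2 times in that of Trpv4, and was not found in the others. Over all 48 matched genes the median G and C content was 61.2%, against 52.3% for the 27457 promoters of the table. It was 59.2% for the 34 genes higher at E15 and 64.7% for the 14 higher in the adult. The median number of CpG was 9.5 and 23.0 in these groups, against 7.0 for all promoters. At least 1 GC box was held by 50% of the channel promoters and 34.9% of all, and the TATA box TATAAA by 4.17% and 14.3%. Such matches describe letters only.

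The CLIC proteins exist in a soluble form and in membranes, and their 6 genes were divided. Clic6, known from water-secreting epithelia as parchorin, had normalized counts of 21731, 28053 and 26489 at E15 and of 74241, 70155 and 75494 in the adult, a fold of 2.88 (log2 -1.53, SE 0.12). Clic5, which links to the actin cytoskeleton of microvilli and stereocilia, had 57.6, 60.9 and 61.2 against 600, 541 and 593, a fold of 9.63 (log2 -3.27, SE 0.15). Clic3 had 16.6, 23.0 and 22.7 against 166, 146 and 134, a fold of 7.13, and Clic2 was counted 19, 9 and 19 times against 52, 62 and 53 times, a fold of 6.04. For these 4 genes the adult was higher.

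Clic1 and Clic4 ran the other way. Clic4, which is present in endothelium and many other cells, had normalized counts of 1037, 875 and 907 at E15 and of 150, 175 and 155 in the adult, a fold of 5.86 (log2 2.55, SE 0.14). Clic1 had 1263, 1572 and 1490 against 589, 612 and 559, a fold of 2.46. No CLIC gene had overlapping ages, and no pool stood apart by more than 1.5 times in any of their folds when left out.

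The ClC genes encode both chloride channels of the surface and chloride proton exchangers of endosomes and lysosomes. Clcn5, an exchanger of early endosomes, had normalized counts of 1474, 1487 and 1400 at E15 and of 258, 257 and 283 in the adult, a fold of 5.47 (log2 2.45, SE 0.12). Clcn4-2, a related endosomal exchanger, had 551, 372 and 366 against 2107, 2162 and 2154, a fold of 4.99 in favour of the adult (log2 -2.32, SE 0.17). The exchangers of endosomes thus lay on opposite sides. Clcn7, the exchanger of lysosomes, had 429, 503 and 475 against 880, 855 and 933, a fold of 1.89, and Ostm1, its obligate partner subunit, was 7.76-fold higher in the adult. With total counts as scaling the log2 fold change of Clcn7 was -0.12 and not called.

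Clcn2, an inwardly rectifying chloride channel of epithelial surfaces, had normalized counts of 259, 409 and 343 at E15 and of 227, 195 and 169 in the adult. The ages did not overlap, and the fold was 1.71 (log2 0.77, SE 0.21).

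Bestrophins and part of the anoctamins are chloride channels opened by calcium. Best3 was counted 2, 8 and 3 times at E15 and 147, 202 and 116 times in the adult, a fold of 59.3 (log2 -5.89, SE 0.44), or 98.6 without E15 pool 2. Of the channel genes it had the fitted change furthest on the adult side. Ano1, the calcium-activated chloride channel of secretory glands and pacemaker cells, had normalized counts of 82.8, 100 and 81.6 at E15 and of 36.8, 15.0 and 30.4 in the adult, a fold of 3.22. A calcium-gated anion channel gene was thus higher at each age, Ano1 at E15 and Best3 in the adult.

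Of the other anoctamins, several of which move lipids across membranes, Ano4 had normalized counts of 15.0, 8.91 and 16.6 at E15 and of 190, 250 and 230 in the adult, a fold of 16.4 (log2 -4.04, SE 0.30). Ano10 had 469, 496 and 516 against 1161, 1164 and 1363, a fold of 2.49. Ano7 was counted 6, 6 and 11 times at E15 and never in the adult, which puts it at least 4.44-fold higher at E15. Ano3 was counted 33, 20 and 22 times against 3, 0 and 10, and its fold of 3.30 was not called. It was 2.14 without adult pool 2, and without adult pool 3 the ratio was 9.36 (3.20 to 48.2) and called. Ano5, linked to muscle membrane repair, had 18, 19 and 13 against 7, 1 and 2, a fold of 2.83 that was not called, and a ratio of 6.52 (2.13 to 33.0), called, without adult pool 1. Vdac3, a pore of the outer mitochondrial membrane, had normalized counts of 4350, 3193 and 3340 against 7160, 6566 and 6999, a fold of 1.90 in favour of the adult that was not called with total counts as scaling (log2 -0.12).

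**Figure D4:**
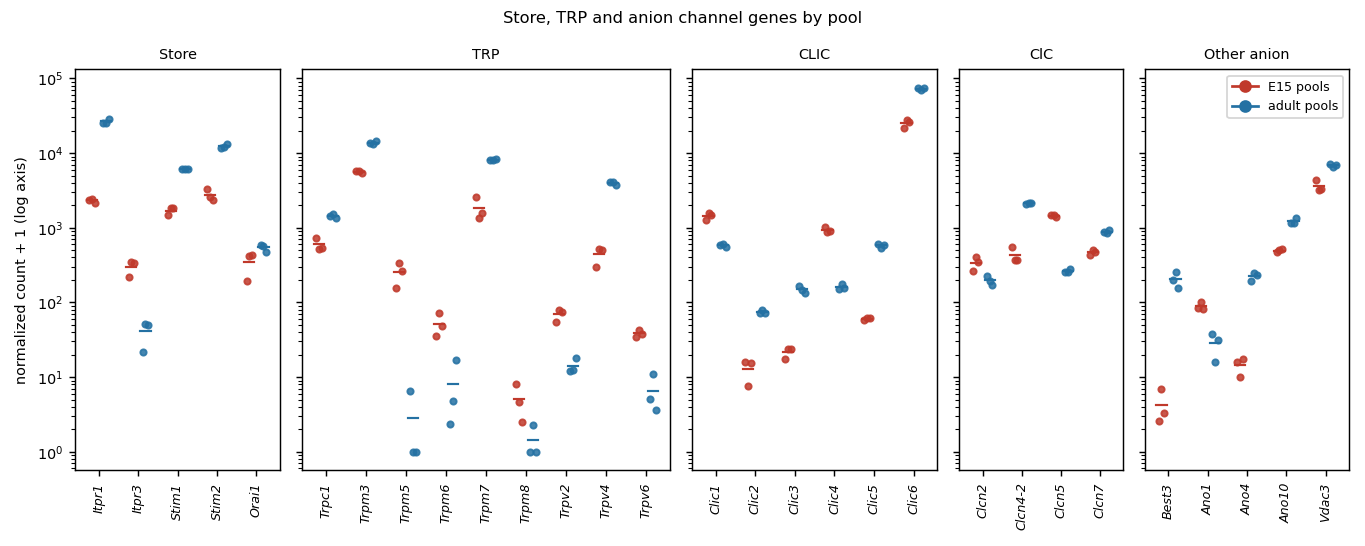
Normalized count plus 1 (vertical log axis) of calcium store, TRP and anion channel genes in each E15 pool (red) and adult pool (blue), with pools in the order 1, 2, 3 and the mean as a line. Within the families related genes lie on opposite sides, such as Itpr1 and Itpr3, Trpm7 and Trpm6, Clic5 and Clic4, or Clcn4-2 and Clcn5, and the red and blue points of each of these genes do not overlap.

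The cyclic nucleotide gated channels carry the light response of photoreceptors, Cnga1 and Cngb1 in rods and Cnga3 and Cngb3 in cones. All 4 were called higher at E15. Cngb3 was counted 110, 93 and 108 times at E15 and 6, 2 and 2 times in the adult, a fold of 17.6, or 28.9 without adult pool 1. Cnga1 had normalized counts of 76.5, 110 and 165 against 19.1, 32.5 and 6.62, a fold of 5.96. Cngb1 was counted 12, 30 and 25 times against 3, 4 and 0, with a fold of 5.37 that was 3.57 without adult pool 3 and not called without E15 pool 2 (4.50) or E15 pool 3 (5.03). Cnga3 was counted 16, 12 and 15 times against 0, 4 and 0. Its fold of 5.98 was called only with all pools or without adult pool 2, where it was at least 5.43-fold higher at E15, and leaving out any other pool gave 4.03 to 6.52-fold and no call.

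The HCN genes encode channels that open on hyperpolarization and are tuned by cyclic AMP. Hcn2 was higher in the adult, with normalized counts of 58.4, 60.1 and 55.9 at E15 and of 229, 309 and 263 in the adult, a fold of 4.59 (log2 -2.20, SE 0.21). Hcn4, the form of the cardiac pacemaker, was counted 173, 246 and 269 times at E15 and 9, 31 and 1 times in the adult, a fold of 9.78, or 24.8 without adult pool 2. Hcn3 had 30.0, 34.9 and 31.7 normalized counts against 6.82, 8.76 and 7.94, a fold of 4.05. Hcn2 thus lay on the side opposite to Hcn3 and Hcn4.

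TMC genes belong to the family of the transduction channels of hair cells. Tmc7 had normalized counts of 54.4, 61.6 and 56.7 at E15 and of 34.1, 18.8 and 14.6 in the adult, a fold of 2.56. Tmc5 was counted 5, 7 and 6 times at E15 and never in the adult, at least 3.47-fold higher at E15. Tmc4 was counted 10, 4 and 8 times against 0, 0 and 1, a ratio of 12.8 (2.06 to 527). It was at least 2.87 without adult pool 3, and leaving out E15 pool 1, E15 pool 3, adult pool 1 or adult pool 2 removed its call, with ratios of 8.51 to 12.3. The 3 genes had low counts throughout.

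How firmly a gene can be described depends in part on its depth. The spread between pools and the scaling bear on it too, as for Orai1. Of the 71 genes, 28 had a mean raw count under 100 at both ages, among them 9 of the 24 voltage-gated genes and none of the 5 store genes.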

How the data were processed

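RNA sequencing of lateral ventricular choroid plexus at E15 and in the adult was compared over 3 pools of 10 animals at each age, with 1 library per pool. The deposited counts are raw numbers of reads on each Ensembl gene. For these, the authors trimmed the reads, aligned them with Bowtie 0.12.7 (rat genome of Ensembl release 61), kept those of unique position and tallied them by HTSeq 0.4.7p4. A second deposited table, used here for gene names alone, holds the authors' log2 fold changes and log2 abundances from edgeR 2.4.0, with p-values and adjusted p-values deposited by the authors for called genes. Whether counting used strand is not given in the sources used here.

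Counts of all genes with more than 10 reads over the 6 libraries were fitted with edgeR 4.0.16 in R 4.3.3 (TMM factors, estimateDisp, glmQLFit, glmQLFTest, age as the only term), with Benjamini-Hochberg adjustment over 16643 genes and a threshold of 0.05. The common dispersion was 0.0332. Standard errors (SE) of these fits are approximate, namely the absolute log2 fold change divided by the square root of the F statistic of the test. The spread between pools of the same age exceeded counting error (chi-square over degrees of freedom 5.65 to 59.8, with the highest values for E15 pool 1). On simulated counts of 16476 genes the test called 82 of 100 genes changed 2-fold and 100 of 100 changed 4-fold, with 9 false calls. The changed genes were drawn from those above a minimum mean count, with the same dispersion for all genes and as many changes up as down. The simulation thus does not cover changed genes of few reads, the difference of the TMM factors between the ages or the larger spread of E15 pool 1. Alternatives used DESeq2 1.42.0, limma 3.58.1 and other filters and scalings. Members and lists were chosen with earlier results of these data known. The results of some members and partner genes are not reported here. Any other member could be named, and marker and partner genes were named where they bear on a sentence. An age with 0 counts was held to a floor of 3 counts over its 3 pools, or over those that remained where 1 was left out. These bounds take the mean of the other age as exact and leave out its counting error. Exact 95% binomial intervals go with ratios that rest on 1 to 3 counts and cover the counting error of both ages. Neither covers the spread between pools.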

Additional observations from a re-analysis of the deposited data

How the results depend on the processing

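Of the 71 channel genes, 43 higher at E15 and 21 higher in the adult were called in the fit reported. The counts were 43 and 21 with RLE factors, 44 and 21 with upper quartile factors, 43 and 22 without a filter, 39 and 21 with filterByExpr, 40 and 22 with DESeq2, 46 and 22 with limma-voom and 49 and 22 with the exact test. With a mean count above 100 at either age, which leaves 43 channel genes, 23 were called at E15. With total counts only the counts were 49 and 19, Orai1 was reversed at a log2 fold change of 0.15, and 9799 of all genes were called at E15 and 2292 in the adult. Totals without the 10 highest genes gave 3196 of all genes in the adult. Leaving out a pool gave 36 to 42 channel genes at E15 and 21 to 22 in the adult, and 5009 to 6218 and 4327 to 5449 of all genes. The shared replicate numbers were not taken to pair the pools. Deviations of same-numbered pools correlated at -0.0339, -8.78e-05 and -0.121, but with 3 pools an age this cannot exclude that they were processed together. With the replicate number as a block 38 and 22 channel genes and 5320 and 4608 of all genes were called.

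Channel genes without a name in the authors' files were not analysed here, and the planned count of channel genes found through a reference table was not run, because the table given holds no Ensembl identifiers. Levels of different genes were not compared, since no transcript lengths were used. With 3 pools an age, genes of few reads rest on 1 pool at times, and the part of other cell types in the channel counts was not tested.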

Other observations

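Beyond the channels, the wider list of partners held groups that were divided in the same way. The volume-regulated anion channel subunits Lrrc8a (1.76-fold), Lrrc8b (1.63-fold) and Lrrc8c (1.58-fold) were called higher at E15 and Lrrc8e (3.59-fold) in the adult, the last on 23 to 34 raw counts in the adult pools. Of kinases that act on chloride transport, Wnk4 (1.89-fold) was called at E15 and Stk39 (3.54-fold) in the adult. Of cation channels of cilia and endolysosomes, Pkd2 (2.37-fold), Mcoln1 (1.48-fold) and Tpcn1 (1.60-fold) were called in the adult, Mcoln2 was called at E15 on 23, 3 and 2 raw counts against 0 in every adult pool, and Mcoln3 was not called. The calsequestrins, calcium buffers of the store, lay on opposite sides, with Casq1 at E15 (log2 3.27) and Casq2 in the adult (log2 -1.89). Fgf12, an intracellular partner of sodium channels, was counted 238, 404 and 293 times at E15 and 0, 3 and 7 times in the adult, a fold of 52.7.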
